A study of Arabidopsis thaliana with 6 samples.

Results

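Homogalacturonan is the most abundant pectin of the plant primary wall. Galacturonosyltransferases of the GAUT family belong to the Golgi machinery that builds it, and the polymer leaves the Golgi with most of its acid groups methylated. In the wall, pectin methylesterases remove the methyl groups, after which the chains can be cross-linked by calcium or cut by pectin-degrading enzymes. Protein inhibitors bind to these esterases, and subtilisin-type proteases cleave off the pro-region that many of them carry.

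The genes described here are GAUT15 (AT3G58790), annotated as galacturonosyltransferase 15, and the pectin methylesterase genes PMEPCRF (AT5G53370), ATPMEPCRB (AT4G02330), PME61 (AT3G59010) and AT3G43270. They were taken by symbol or locus from the array's probe-to-gene table, counting only probe sets that match exactly 1 gene. Each of the 5 genes had 1 such probe set, so they are 5 of the 13286 genes that can be read this way, and all 5 were among the 7476 tested. The annotation names the first 4, while AT3G43270 carries no name beyond its locus and its family comes from background knowledge. GAUT15, PME61 and AT3G43270 lie on chromosome 3, ATPMEPCRB on chromosome 4 and PMEPCRF on chromosome 5.

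The arrays (Affymetrix ATH1) measured RNA of Arabidopsis thaliana cells in suspension culture, in a study of how the pectic part of the wall is assembled. There were 3 control arrays, for which the labels name no treatment, and 3 arrays of cultures with 0.1 mM isoxaben, a herbicide that blocks cellulose synthesis. All cultures grew in a Murashige and Skoog medium supplemented with sucrose, the auxin naphthalene acetic acid and kinetin, a cytokinin. The labels give no accession or line of the cells, no length of treatment and no statement that replicates were separate cultures, so the p-values below reflect sample-to-sample spread alone, and part or all of that spread may be technical.

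Sample titles divide the arrays into a first set, with replicate 1 of each group, and a second set, with replicates 2 and 3. The source name of isoxaben replicate 1 carries the code DCB where its title and treatment label say isoxaben, and control replicate 1 had 7023 outlier cells per the labels against 160 to 613 on the other arrays. Each result on the 5 genes was also computed without either array. Median signals were 31.6 to 42.0 per array, and arrays correlated at 0.956 to 0.992 within a group and at 0.745 to 0.773 between groups, across probe sets. A culture of this kind has no marker of its own. Of 5 markers of dividing cells, 1 had a usable probe set, the mitotic kinase gene AUR1 (signals of 69.5 to 76.1 in control and 368.2 to 413.4 in isoxaben arrays). Of 27 markers of other cell types, 4 had a usable probe set, all too dim on average to be tested. Those of root hairs summed to 13.6 to 21.1 in control and 21.8 to 28.6 in isoxaben arrays, that of pollen to 0.7 to 0.8 and 0.7 to 1.5, and that of guard cells to 10.5 to 42.1 and 15.8 to 23.1. Of the 2 root hair markers, the groups of EXPA7 overlapped, and those of EXPA18 did not, at 10.2 or below on every array. The part of cell division in the results below was not tested, and in RNA of whole cultures fewer cells of a type and less RNA per cell cannot be told apart.

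Between control and isoxaben cultures, the transcripts of the synthesis gene GAUT15 and of the esterase AT3G43270 rose, and those of the esterases PMEPCRF, ATPMEPCRB and PME61 fell. The fall of PMEPCRF was the largest of the 5 changes, about 5-fold, and the others were near 2-fold or less. All 5 passed the test used throughout, limma on log2(signal + 16) with Benjamini-Hochberg adjustment over 13648 probe sets and a threshold of 0.05. That test called 56.6% of all probe sets, 29.4% higher and 27.2% lower, so a call by itself is common in these data. The signals of the groups did not overlap for any of the 5 genes, which also held for 63.2% of all tested probe sets.

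GAUT15 had signals of 60.7, 57.5 and 64.4 in control replicates 1 to 3 and of 95.3, 112.4 and 112.1 in isoxaben replicates 1 to 3. Every isoxaben array lay above every control array, and isoxaben replicate 1 was the lowest of its group. The mean signal was 60.9 ± 3.45 (SD, n = 3) in control and 107 ± 9.79 (SD, n = 3) in isoxaben cultures, 1.75 times as high. On the log2 scale the change was 0.67 ± 0.12 (SE; 95% interval 0.41 to 0.94; limma adjusted p = 0.000843). A rise at least this large was found for 18.5% of all tested probe sets.

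PMEPCRF is annotated as pectin methylesterase PCR fragment F. Its signals were 934.1, 877.2 and 863.8 in the control arrays and 210.4, 182 and 128.6 in the isoxaben arrays. The lowest control value was thus several times the highest isoxaben value, and in both groups replicate 1 was the highest. The mean fell from 892 ± 37.3 to 174 ± 41.5 (SD, n = 3 each), with a log2 change of -2.28 ± 0.16 (SE; 95% interval -2.63 to -1.93; limma adjusted p = 1.69e-06). Only 1.37% of tested probe sets fell by as much or more.

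ATPMEPCRB, also annotated as pectin methylesterase 41, had signals of 302.6, 376.8 and 361.5 in control and of 211.3, 201.8 and 202.6 in isoxaben arrays. The isoxaben arrays lay close together, and control replicate 1 was the control nearest to them. The mean was 347 ± 39.2 in control and 205 ± 5.27 in isoxaben cultures (SD, n = 3 each), and the control level was 1.69 times the isoxaben level. The log2 change was -0.71 ± 0.11 (SE; 95% interval -0.96 to -0.45; limma adjusted p = 0.000458). Falls of this size or larger were seen in 16.1% of tested probe sets. The intervals of PMEPCRF and ATPMEPCRB do not overlap, though the difference between their changes was not itself tested.

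PME61, also annotated as pectin methylesterase 35, had signals of 51.6, 44.2 and 41.2 in control and of 21.3, 23.9 and 35.7 in isoxaben arrays. The groups came close to each other, with isoxaben replicate 3 only a little below control replicate 3, and isoxaben replicate 1 was below the signal of 22.1 at which the filter on dim probe sets lay. The mean was 45.7 ± 5.35 in control and 27.0 ± 7.67 in isoxaben cultures (SD, n = 3 each). The log2 change was -0.53 ± 0.16 (SE; 95% interval -0.90 to -0.16; limma adjusted p = 0.0194), and 21.3% of tested probe sets fell by as much or more. This call was the weakest of the 5. It was lost without isoxaben replicate 1 (-0.44, limma adjusted p = 0.0711), without isoxaben replicate 2 (-0.49, 0.0712), with no filter on dim probe sets (-0.53, 0.0528) and within the second title set (-0.37, 0.0588).

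AT3G43270 was the esterase that rose. Its signals were 38.8, 21.6 and 30.1 in control and 59.8, 62.3 and 66.3 in isoxaben arrays. The isoxaben arrays agreed closely, whereas the control arrays spread over a wider range, with control replicate 2 below the filter signal of 22.1. The mean was 30.2 ± 8.60 in control and 62.8 ± 3.28 in isoxaben cultures (SD, n = 3 each), 2.08 times as high. The log2 change was 0.79 ± 0.16 (SE; 95% interval 0.43 to 1.15; limma adjusted p = 0.00202), and 15.3% of tested probe sets rose by as much or more. Because its signals are low, the size depended on the pseudocount: the log2 change was 1.07 with a pseudocount of 1 and 0.43 with 64.

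**Figure D1:**
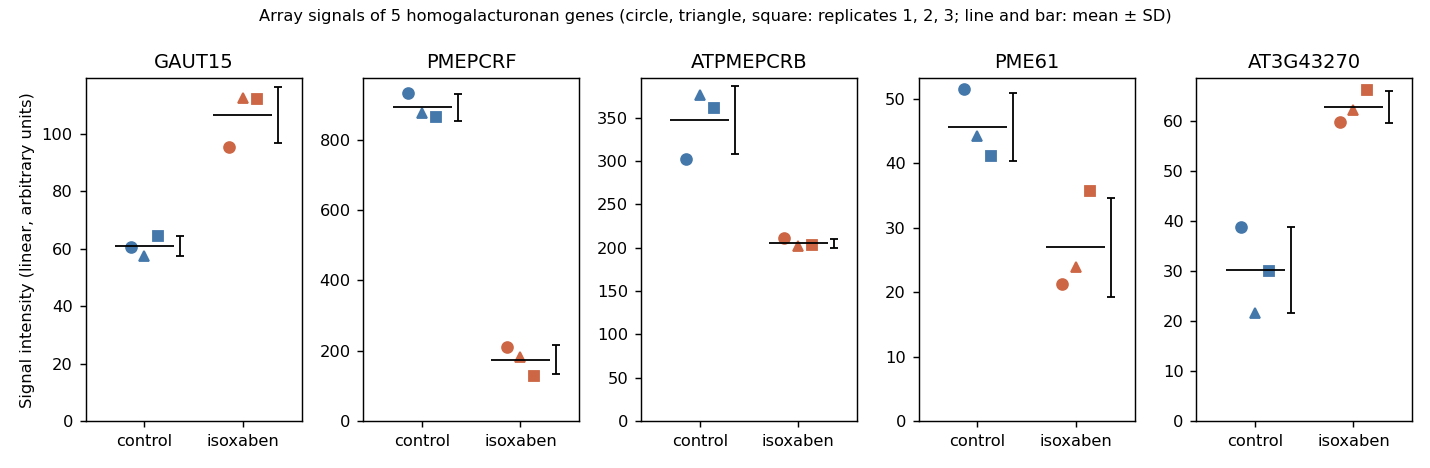
Signal intensity (linear, y axis from 0, a scale of its own for each gene) of GAUT15, PMEPCRF, ATPMEPCRB, PME61 and AT3G43270 on the 3 control and 3 isoxaben arrays; points are arrays, with circles, triangles and squares for replicates 1, 2 and 3, and lines and bars are the mean and SD. GAUT15 and AT3G43270 are higher and the other genes lower in isoxaben arrays, with no overlap, and the gap is narrowest for PME61 (41.2 against 35.7).

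**Figure D2:**
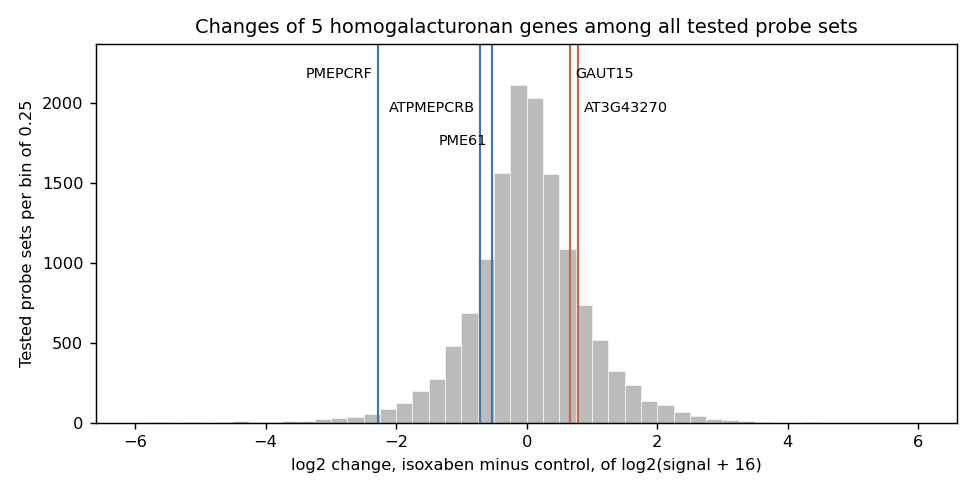
Histogram of the log2 change, isoxaben minus control, of all 13648 tested probe sets in bins of 0.25, with a vertical line for each of the 5 genes. PMEPCRF at -2.28 lies in the lower tail, while ATPMEPCRB, PME61, GAUT15 and AT3G43270, between -0.71 and 0.79, lie within the bulk of the changes.

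Both title sets gave the same direction for each gene. The first set, 1 array against 1 and so without a test, gave log2 changes of 0.54 for GAUT15, -2.07 for PMEPCRF, -0.49 for ATPMEPCRB, -0.86 for PME61 and 0.47 for AT3G43270. The second set gave 0.74, -2.39, -0.82, -0.37 and 0.95 in the same order. PME61 changed more in the first set and the other genes more in the second, a difference that was not tested. Without isoxaben replicate 1, the log2 changes of GAUT15 (0.74, limma adjusted p = 0.00131), PMEPCRF (-2.42, 1.03e-05), ATPMEPCRB (-0.73, 0.00168) and AT3G43270 (0.82, 0.0077) still passed. They also passed without control replicate 1, as did PME61 (-0.46, limma adjusted p = 0.0282).

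**Figure D3:**
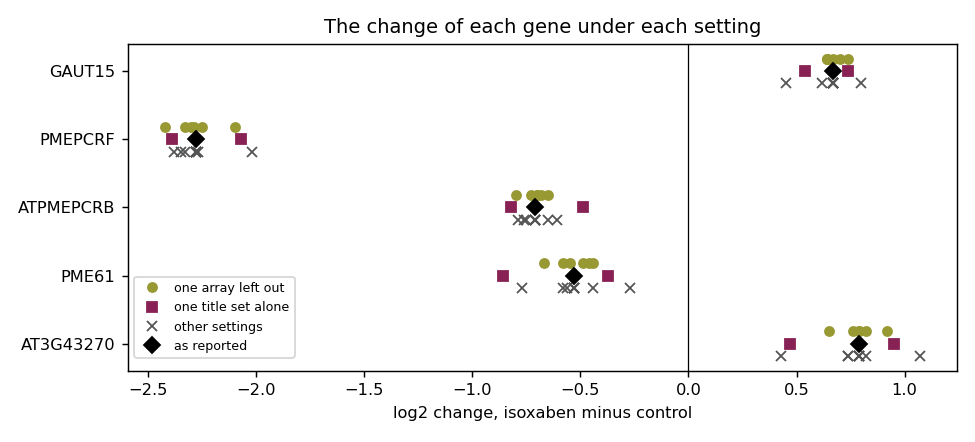
Log2 change, isoxaben minus control, of each of the 5 genes (x axis) as reported (diamonds), with 1 array left out (circles), within a title set alone (squares) and under the other settings tried (crosses). No setting moved a gene across 0, and PME61 ranged from -0.86 to -0.27.

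The rest of the methylesterase family was read from a list of 66 loci drawn up from background knowledge, of which 19 carry a family name in the annotation. A usable probe set was found for 44 of them, and 26 of these stayed below the filter signal of 22.1 on every array. The filter left 8 genes, 3 with a family name, and of these 5 were lower and 1 was higher (62.5% and 12.5% of the 8, against 27.2% and 29.4% of all tested probe sets). The median log2 change of the 8 was -0.62, that of all tested probe sets 0.00824. These 8 include the 4 esterases above, and a gene bright in only 1 group passes the filter more readily when it changes, so the shares describe the genes that passed and not the family.

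The other tested esterase loci were AT2G47550, AT3G10720, AT3G49220 and AT5G09760, which the annotation names by locus only. AT2G47550 had signals of 288.6, 367.1 and 352.4 in control and of 104.8, 107.5 and 100 in isoxaben arrays, and fell with a log2 change of -1.54 ± 0.12 (SE; limma adjusted p = 3.71e-06). AT3G10720 had 50.2, 75.8 and 64.3 in control and 17.9, 11.5 and 7.1 in isoxaben arrays, all of the latter below the filter signal, so it entered the filtered test only through its control signals. With no filter it was called lower (limma adjusted p = 0.000839), and its log2 change ran from -0.74 with a pseudocount of 64 to -2.36 with 1. In both genes the groups were far apart. AT3G49220 (0.05 ± 0.11, 95% interval -0.20 to 0.30) and AT5G09760 (-0.08 ± 0.15, interval -0.41 to 0.25) did not pass, and their groups overlapped. With no filter, 5 of 44 esterase loci were lower and 2 higher (median -0.06), where 16.3% of all probe sets were lower and 18.1% higher. There the dim ATPMEPCRD (-0.58, limma adjusted p = 0.0415) was called lower and the dim AT1G02810 (0.66, limma adjusted p = 0.0208) higher, while PME61 was no longer called.

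On the synthesis side, GAUT15 was the only 1 of 25 GAUT and GATL genes with a probe set named here, so nothing is given for the other members of its family. Of 11 loci listed for the supply of UDP-galacturonate, the sugar donor, only AT5G04160 could be read (33.2 ± 3.61 to 58.8 ± 8.13, log2 change 0.60 ± 0.14, limma adjusted p = 0.00442). Of 4 listed for methylation of the polymer in the Golgi, AT3G49720 could be read (528 ± 13.4 to 805 ± 62.0, log2 change 0.59 ± 0.10, limma adjusted p = 0.000542). The annotation gives both by locus alone, and their place on the lists comes from background knowledge. Both rose, as GAUT15 did, by similar amounts on the log2 scale. Such rises were common, as 29.4% of all tested probe sets were called higher and 18.5% rose by as much as GAUT15 or more.

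The list of inhibitors of pectin methylesterases held 12 loci, of which 8 had a probe set and 4 were tested, none of them with a family name in the annotation. Of the 4, 3 were higher and none lower, against 29.4% and 27.2% of all tested probe sets, and the remark on the filter made for the esterases holds for this list too. AT5G62350 had signals of 5.6, 14.7 and 10.8 in control and of 172.7, 198.3 and 239.8 in isoxaben arrays. All its control signals lay below the filter signal, so it entered the filtered test only through its isoxaben signals. With no filter it was called higher (limma adjusted p = 1.54e-05), and its log2 change ran from 1.84 with a pseudocount of 64 to 4.25 with 1. The rises of AT1G62770 (33.7 ± 9.31 to 51.9 ± 0.8, log2 change 0.47) and AT1G62760 (20.2 ± 3.82 to 33.9 ± 4.76, 0.46) were small and their limma calls fragile, with adjusted p up to 0.11 and 0.12 when 1 array was left out. With the replicate number as a block, AT1G62760 no longer passed (limma adjusted p = 0.0509) and 2 genes of the list were higher. AT3G47380 changed by -0.22 ± 0.23 and did not pass. Its signals of 20.9 and 20.4 in control replicates 2 and 3 and of 12.3 in isoxaben replicate 1 lay below the filter signal. With no filter, 1 of the 8 was called higher, where 18.1% of all probe sets were. With the filter, 1 of the 4 tested genes was higher without control replicate 2 or without isoxaben replicate 2 or 3.

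The 3 listed proteases known to process or affect methylesterases were all tested, with 2 higher and 1 lower, where 56.6% of all tested probe sets were called (29.4% higher, 27.2% lower). S1P, the site-1 protease that cleaves the pro-region of some esterases in the Golgi, rose from 154 ± 29.6 to 229 ± 15.6 (SD, n = 3 each; log2 change 0.54 ± 0.14, limma adjusted p = 0.00801). ARA12, a subtilase also called SBT1.7 whose loss alters esterase activity in the seed coat, rose from 154 ± 41.8 to 266 ± 39.8 (0.75 ± 0.18, limma adjusted p = 0.00529). SBT3.5, a subtilase able to process a root esterase, had signals of 199.6, 221.6 and 231.5 in control and of 36.1, 19.1 and 19.1 in isoxaben arrays. It fell by 2.54 ± 0.17 on the log2 scale (SE; limma adjusted p = 1.38e-06), while S1P and ARA12 went the other way. Isoxaben replicates 2 and 3, at 19.1, lay below the filter signal, and its log2 change ran from -1.67 with a pseudocount of 64 to -3.15 with 1.

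Other pectin genes could be read only in part, and their calls stand beside 29.4% higher and 27.2% lower of all tested probe sets. Of 16 loci listed for pectin acetylation and its removal, 3 were tested and AT3G05910 rose (156 ± 21.4 to 437 ± 15.5, log2 change 1.40 ± 0.12, limma adjusted p = 6.57e-06), whereas AT3G09405 (-0.08 ± 0.23) and AT3G09410 (-0.08 ± 0.13) did not pass. Of 6 loci listed for the synthesis of rhamnogalacturonan and xylogalacturonan, AT5G15740 was read and fell (124 ± 6.91 to 57.5 ± 7.67, log2 change -0.93 ± 0.12, limma adjusted p = 0.000125).

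**Figure D4:**
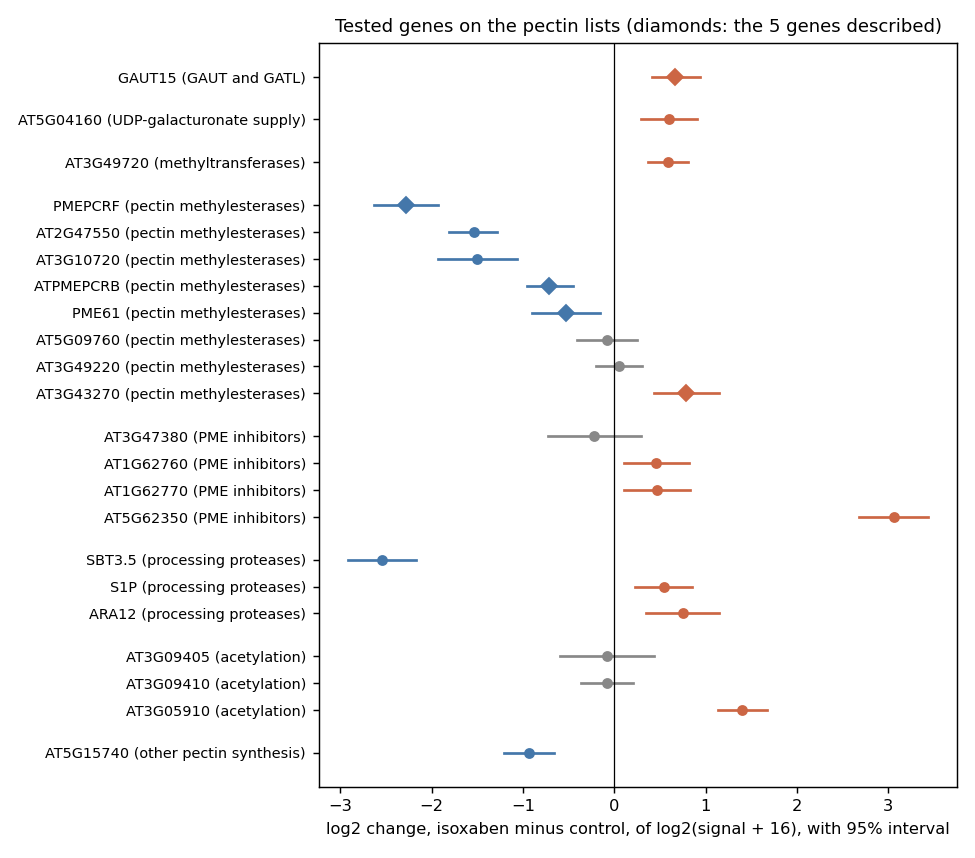
Log2 change, isoxaben minus control, with its 95% interval (x axis) for each tested gene of the pectin lists, grouped by role; diamonds are the 5 genes described, and orange, blue and grey mark genes that were higher, lower or did not pass. Among the tested esterases AT3G43270 alone is higher. The points of AT5G62350 (3.06), AT3G10720 (-1.50) and SBT3.5 (-2.54), which have signals below the filter signal of 22.1 in 1 group, move with the pseudocount. Those of PME61, AT3G43270, AT1G62760 and AT3G47380, each with some arrays below that signal, move with it too. So do points of genes with every array above it, among them AT5G04160 (0.80 with a pseudocount of 1, 0.34 with 64).

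The profiles most like those of the 5 genes were sought among 1022 tested probe sets of other genes with a symbol, as the root mean squared difference of centred log2 values over the 6 arrays. For GAUT15 they were DIM1A, an adenosine dimethyl transferase gene, and SLY2 (0.045 for each). For PMEPCRF they were SBT3.5 (0.212) and the cytochrome P450 gene CYP71B23 (0.216), larger differences than those of the other 4 genes. For ATPMEPCRB they were CRK at locus AT4G01710, also annotated as CROOKED or ARPC5 (0.056), and FIP2 at locus AT5G55000 (0.068), symbols that other loci carry too. For PME61 they were TSC10B (0.079) and UBP19, a ubiquitin-specific protease gene (0.098), and for AT3G43270 CHR24, a chromatin remodelling gene (0.076), and the myosin gene XIC (0.079). As the arrays form a control and an isoxaben group, genes with group changes of similar size score as alike. Of all tested probe sets, of which the candidates are a part, 1.37% fell by as much as PMEPCRF or more. The log2 change of CYP71B23 was -2.22, against -2.28 for PMEPCRF. Why the differences from PMEPCRF were larger was not tested. Shared regulation was not tested.

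Genes next to the 5 on the chromosome were also read where they had a probe set. Beside ATPMEPCRB, the esterase locus AT4G02320 stayed dim, at 15.6 or below on every array, and AT4G02340 on the other side fell (706 ± 79.7 to 408 ± 43.1, log2 change -0.77 ± 0.12, limma adjusted p = 0.000397). Beside PMEPCRF, AT5G53360 did not pass (log2 change -0.06 ± 0.12). Beside PME61, AT3G59000 rose (0.40 ± 0.13, limma adjusted p = 0.0219), a call lost in 6 of 16 alternatives, among them the omission of isoxaben replicate 1 (0.0611), control replicate 3 (0.0613) or isoxaben replicate 3 (0.0756), and AT3G59020 did not pass (-0.01 ± 0.19). The neighbours of GAUT15 and AT3G43270 that had a probe set, AT3G58800 and AT3G43280, were too dim to be tested.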

How the data were processed

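The deposited table gives 1 linear signal intensity per probe set and array, 22810 in all, with no detection calls. These deposited intensity values were already scaled, with trimmed means of 100.006 to 100.008; the sources used here name no algorithm for them. After removal of 64 control probe sets, signals became log2(signal + 16), a scale that understates changes of dim genes, and probe sets under the 40th percentile of mean log2 value, a signal of 22.1, were dropped. The 13648 left were fitted with limma 3.58.1 in R 4.3.3 (lmFit, then eBayes using the trend with intensity, two-sided), with Benjamini-Hochberg adjustment. The fit was checked on simulated data with independent noise and few changed probe sets. That check does not cover title sets, replicate numbers or the large share of calls found here. The number of arrays limits the precision.

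Of the probe sets, 13513 match 1 gene, 503 several and 8730 are unnamed here. Symbols were updated through a RefSeq table of TAIR10.1, used only for names and gene order. Where a listed gene had more than 1 probe set, the brightest was used; AT1G62760 had a further one, near 0. RNA of close paralogs can bind the same probes.

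Groups came from titles. No pair of arrays shared over 1.44% of equal signals. Deviations from group means correlated at 0.207, 0.110 and 0.128 for arrays of the same number. Arrays of the second set with unlike numbers reached 0.101 and 0.118. Pairing by number therefore cannot be told apart from a shared title set. The main fit held no term for either, and each was tried as a block among the alternatives. Members, lists and tests were chosen with earlier results of these data known. Named genes were the 5 members, all tested genes of lists with at most 8, and the 2 most alike profiles per member; chromosomal neighbours were added after the values were seen. No sequence was used here. Alternatives were other scalings, pseudocounts of 1 and 64, no filter or the 60th percentile, no trend, array weights, replicate and title set blocks, either title set by itself, and omission of single arrays in turn.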

Additional observations from a re-analysis of the deposited data

How the results depend on the processing

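No alternative turned the direction of any of the 5 genes. GAUT15, PMEPCRF, ATPMEPCRB and AT3G43270 passed limma in every alternative that gave a test for them, while PME61 passed in 12 of 16 and was lost in those named with its values above (-0.53 with no filter, -0.37 in the second title set). When 1 array was left out PME61 ranged from -0.67 to -0.44. The 60th percentile filter left no value for PME61 and AT3G43270. Within the first title set, with no test, the changes were -0.49 for ATPMEPCRB, -0.86 for PME61, -2.07 for PMEPCRF and 0.47 for AT3G43270. On the esterase list, 2 were higher with no filter (median -0.06). The 60th percentile filter left 4 genes, of which 0 were higher and 3 lower (median -1.13), PMEPCRF and ATPMEPCRB among the latter. Over all probe sets that filter gave 2952 higher and 2974 lower, about as many of each. It kept fewer probe sets than the 13648 of the main test, so these counts cannot be set against those of the main test. With 1 array left out, the median of the list ran from -0.68 to -0.33, the latter without isoxaben replicate 1, where 10 genes were tested. The inhibitor list had 1 to 3 higher genes over the alternatives that left it any; the 60th percentile filter left none. The replicate block ended the call of AT1G62760 (0.46, limma adjusted p = 0.0509), and PME61 had an adjusted p of 0.0347 with it; it changed no other call among the genes named here and gave 4250 higher and 3913 lower probe sets against 4011 and 3715. Among the genes with the most alike profiles, the limma call of UBP19 was lost without isoxaben replicate 1 (0.0649) and in 3 other alternatives. The median change over all probe sets stayed between -0.065 and 0.066. PME61, AT3G43270, AT1G62760, AT3G47380, AT5G62350, AT3G10720 and SBT3.5 had arrays below the filter signal of 22.1. Their changes are limited by signal over background.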
